A study of Mus musculus with 6 samples.

Results

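Genes that megakaryocytes and platelets are known for, the 8 genes Pf4, Ppbp, Gp1ba, Gp1bb, Gp5, Gp6, Gp9 and Vwf, were examined in RNA sequencing of mouse bone marrow samples with and without a deletion of Hes1, a transcriptional repressor that acts downstream of Notch. They were taken by gene symbol, and all 8 are in the deposited table, where 26981 genes have a count in at least 1 of the 5 deeper libraries. The samples are labelled as mesenchymal stromal cells of mice in a C57BL/6 background, in 2 groups of 3 libraries. The group labelled Hes1 KO (KO for short) came from crosses of Hes1fl/+ mice with Prx1Cre mice, where Cre is driven by a promoter of early limb bud mesenchyme and part of the craniofacial mesenchyme. The mice had been backcrossed more than 10 times. The labels name the other group WT, and they give neither the number of deleted alleles in KO nor whether WT mice carried a floxed allele or Cre. Ages, and whether replicates were separate animals or cultures, are not stated in the labels, so p-values reflect how much these libraries vary, which may be technical.

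Megakaryocytes are the large marrow cells that shed platelets into the blood. Platelets carry the chemokines platelet factor 4 (Pf4) and pro-platelet basic protein (Ppbp) in their alpha granules, together with von Willebrand factor (Vwf), the large adhesive protein that endothelial cells also make. On the platelet surface the products of Gp1ba, Gp1bb, Gp9 and Gp5 form the GPIb-IX-V complex, the receptor for von Willebrand factor, while Gp6 encodes the collagen receptor GPVI. In bulk RNA, fewer cells of a type and less RNA per cell cannot be told apart.

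The promoters of 7 of the 8 genes were found in RefSeq (GRCm38.p6), each as 300 bases from 250 before to 50 after the start of the gene. The promoters of the neighbours Pf4 and Ppbp are shown since these genes had unlike counts, and those of Gp1ba, Gp5 and Gp9 since their products share a receptor complex. Capitals mark, on either strand, the letters GATA with A or T before and A or G after them, which GATA factors such as the megakaryocyte regulator GATA1 are known to bind. They also mark the letters GGAAG with A or C before them, which ETS factors such as FLI1 are known to bind.
Pf4, chr5:90772185-90772484, plus strand: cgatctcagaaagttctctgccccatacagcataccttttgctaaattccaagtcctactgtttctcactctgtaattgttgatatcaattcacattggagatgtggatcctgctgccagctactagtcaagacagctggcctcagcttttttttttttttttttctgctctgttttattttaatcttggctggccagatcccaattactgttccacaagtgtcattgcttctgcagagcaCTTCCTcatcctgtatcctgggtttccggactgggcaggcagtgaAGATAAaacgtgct
Ppbp, chr5:90768268-90768567, plus strand: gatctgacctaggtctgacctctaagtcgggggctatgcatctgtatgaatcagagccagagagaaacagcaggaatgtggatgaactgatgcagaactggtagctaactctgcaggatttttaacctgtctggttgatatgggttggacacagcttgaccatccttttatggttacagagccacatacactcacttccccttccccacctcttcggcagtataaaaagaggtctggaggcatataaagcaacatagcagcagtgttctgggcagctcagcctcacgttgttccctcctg
Gp1ba, chr11:70638872-70639171, plus strand: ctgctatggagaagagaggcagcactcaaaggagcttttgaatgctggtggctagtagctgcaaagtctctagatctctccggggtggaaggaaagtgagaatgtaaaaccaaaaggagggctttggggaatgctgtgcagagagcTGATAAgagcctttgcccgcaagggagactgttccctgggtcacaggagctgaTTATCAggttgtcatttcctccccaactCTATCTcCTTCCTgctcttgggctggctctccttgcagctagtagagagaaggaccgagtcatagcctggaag
Gp5, chr16:30310732-30311031, minus strand: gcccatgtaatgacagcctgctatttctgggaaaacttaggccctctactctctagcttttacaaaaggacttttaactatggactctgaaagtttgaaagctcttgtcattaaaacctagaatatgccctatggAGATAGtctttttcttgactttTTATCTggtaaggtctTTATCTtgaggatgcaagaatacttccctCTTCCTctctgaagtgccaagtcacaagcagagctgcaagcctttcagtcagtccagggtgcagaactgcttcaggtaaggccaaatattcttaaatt
Gp9, chr6:87777820-87778119, plus strand: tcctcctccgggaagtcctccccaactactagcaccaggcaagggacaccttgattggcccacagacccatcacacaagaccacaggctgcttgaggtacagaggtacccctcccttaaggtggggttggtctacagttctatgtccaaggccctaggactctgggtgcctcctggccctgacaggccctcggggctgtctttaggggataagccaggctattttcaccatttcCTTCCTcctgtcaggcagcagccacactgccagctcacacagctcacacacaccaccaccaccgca

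A GATA match was found in 5 of the 7 promoters (Pf4, Gp1ba, Gp1bb, Gp5 and Gp6) and in 29.8% of all 32851 promoters of that length. An ETS match was found in 5 of the 7 (Pf4, Gp1ba, Gp1bb, Gp5 and Gp9) and in 46.5% of all. Both were found in 4 of the 7 and in 12.6% of all, and no GATA match overlapped an ETS match in these 7. Gp1ba and Gp5 each held 3 GATA matches, and the window of Ppbp held none of either kind. These are matches of letters, and binding was not measured.

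The 3 KO libraries held 20563116 to 22131465 counts, WT replicate 2 held 5812598 and WT replicate 3 held 12109170, while WT replicate 1 held 66167. A count in WT replicate 1 is worth 15.1 CPM (counts per 1000000 counts of the library), and 3 counts there make 45.3 CPM, above the level of each of the 8 genes in every other library, so that library is given apart. Haemoglobin genes took 39.9% of the counts of WT replicate 3 and at most 0.263% elsewhere. Hes1 itself was counted 185, 220 and 255 times in KO (8.36, 10.4 and 12.4 CPM) and 0, 310 and 345 times in WT replicates 1, 2 and 3 (0, 53.3 and 28.5 CPM), lower in each KO library than in both deeper WT libraries. Stromal markers were low. Of the 13 listed, the 2 with the most counts were Cxcl12, the niche chemokine, and the receptor gene Pdgfrb. Cxcl12 was at 3.12 to 14 CPM in KO and at 12.6 and 0.743 CPM in the deeper WT libraries (replicate 2 first, here and below). Pdgfrb was at 6.71 to 7.91 CPM in KO and at 10.5 and 1.73 CPM in the deeper WT libraries. The 13 stromal markers summed to 14.1 to 30.4 CPM in KO and to 37.8 and 4.79 CPM in the deeper WT libraries.

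Transcripts of the 8 genes were scarce in both groups. Together they had 230, 302 and 308 counts in KO replicates 1, 2 and 3, which make 10.4, 14.3 and 15.0 CPM. They had 150 counts in WT replicate 2 (25.8 CPM) and 109 in WT replicate 3 (9.0 CPM). In unscaled CPM the WT libraries thus lay above and below all KO libraries. The scaling behind the fold changes further on raises WT replicate 3 relative to every other deeper library, so this order is that of unscaled CPM only. WT replicate 1 had a count in 1 of the 8 genes, Gp1ba, and 0 in the other 7. WT replicate 3 had 43% of its counts in 14 erythroid markers led by Hbb-bs and Hbb-bt. It had the lowest CPM sum of platelet genes of these 5 libraries. With haemoglobin genes left out of the total its sum of the 8 genes was 15.0 CPM, inside the KO range of 10.4 to 15.0 CPM. Erythroid cells and megakaryocytes share precursors.

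**Figure D1:**
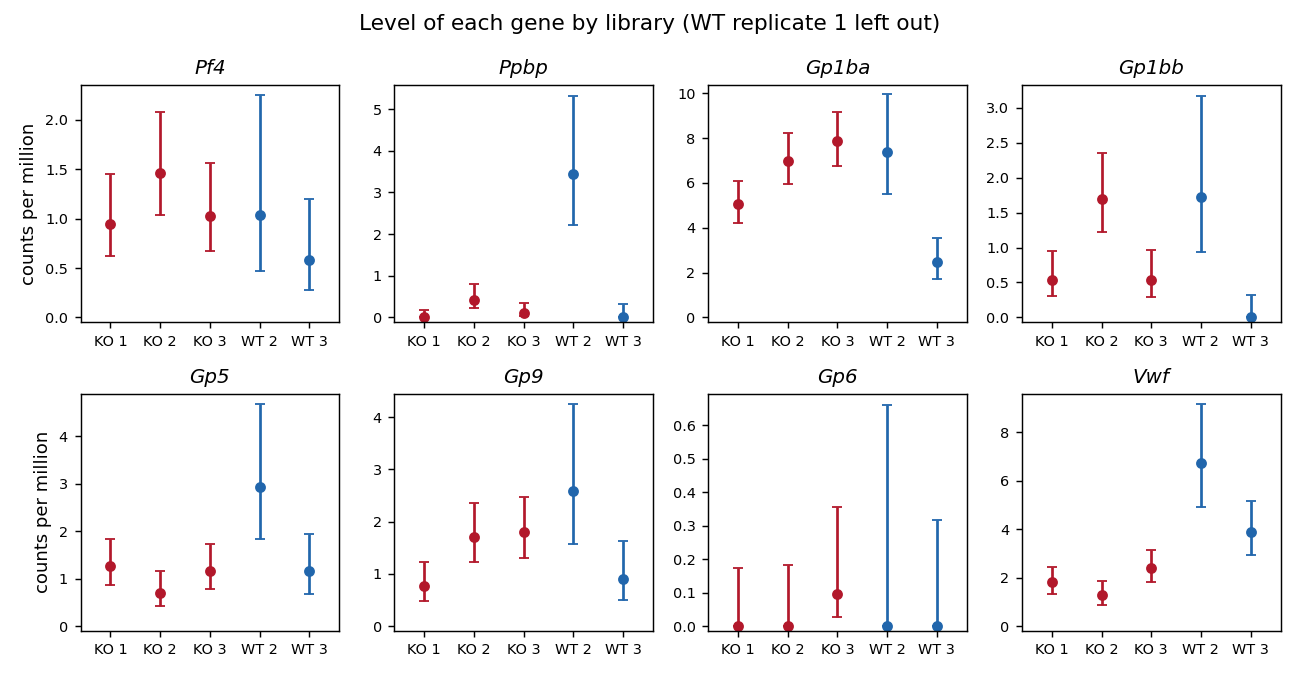
CPM (y axes, from 0) of each gene in the 5 deeper libraries (x axes, red for KO and blue for WT). Points are library values and bars are Wilson 95% intervals, which cover counting error only. The KO points of Vwf all lie below both WT points, a pattern shared by 7.54% of all tested genes. Ppbp is highest in WT replicate 2, at 3.44 CPM, and is at 0 in WT replicate 3 and at most 0.425 CPM in KO.

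Per kilobase of exon (GENCODE vM21, GRCm38, a build other than the GRCm39 named for the counts), Gp1ba had the highest mean level over these 5 libraries, at 2.19 CPM per kb with a range of 0.912 to 2.90. Gp9 followed at 1.76 (0.872 to 2.93) and Pf4 at 1.40 CPM per kb (0.802 to 2.03). The ranges of these 3 genes overlap, so their order does not exceed the spread over libraries. Ppbp (mean 0.732), Gp5 (0.657) and Gp1bb (0.431 CPM per kb) came next, again with overlapping ranges. Vwf, at 0.200 CPM per kb (0.0794 to 0.418), and Gp6, at 0.00330 (0 to 0.0165), were the lowest. The range of Gp6 lies below that of Vwf, while that of Vwf overlaps those of Gp5, Gp1bb and Ppbp.

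The granule chemokines Pf4 and Ppbp, which lie 2371 bases apart on chromosome 5, differed in their pattern. Pf4 had 21, 31 and 21 counts in KO replicates 1, 2 and 3 (0.949, 1.46 and 1.02 CPM, mean 1.14 ± 0.279 SD, n = 3). It had 0, 6 and 7 counts in WT replicates 1, 2 and 3, or 1.03 and 0.578 CPM in the latter 2. The groups overlap, with WT replicate 2 inside the range of KO. Ppbp had 0, 9 and 2 counts in KO (0, 0.425 and 0.0973 CPM). Of the 20 Ppbp counts in WT all were in WT replicate 2, at 3.44 CPM (Wilson 95% interval 2.23 to 5.31), and WT replicates 1 and 3 had 0. The 0 in WT replicate 3 allows up to 0.248 CPM and that in KO replicate 1 up to 0.136 CPM, taking 3 counts as the limit. In WT replicate 2 Ppbp thus had more counts than Pf4, and in each KO library fewer. Of the chemokines encoded in the same cluster, Cxcl3 had 9, 14 and 8 counts in KO and 0, 1 and 0 in WT, and the neutrophil chemokine Cxcl2 had 901, 1993 and 1159 in KO and 0, 61 and 9 in WT. Cxcl2 rose by 3.56 on the log2 scale without WT replicate 1 (SE 0.81, edgeR, Benjamini-Hochberg adjusted p = 0.0437), in the comparison described further on.

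Gp1ba, which encodes the chain of the receptor complex that binds von Willebrand factor, was the most counted of the 8 genes. It had 112, 148 and 162 counts in KO (5.06, 6.99 and 7.88 CPM, mean 6.64 ± 1.44 SD, n = 3), and 1, 43 and 30 in WT replicates 1, 2 and 3 (15.1, 7.40 and 2.48 CPM). WT replicate 2 lies inside the KO range and WT replicate 3 below it. Counted against a total without haemoglobin genes, WT replicate 3 was at 4.12 CPM. Gp1ba lies 32 bases from Slc25a11, a mitochondrial carrier gene on the opposite strand (RefSeq, GRCm38.p6), and whether the counting used strand is not stated. Slc25a11 was at 82.9, 123 and 99.5 CPM in KO and at 45.2 and 22.5 CPM in the deeper WT libraries, and its part in the Gp1ba counts was not tested.

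The partner chains were lower and less even. Gp9, encoding GPIX, had 17, 36 and 37 counts in KO (0.768, 1.70 and 1.80 CPM) and 0, 15 and 11 in WT replicates 1, 2 and 3, of which the latter 2 make 2.58 and 0.908 CPM. The groups overlap in CPM. Gp5, encoding the GPV chain, had 28, 15 and 24 counts in KO (1.27, 0.709 and 1.17 CPM) and 0, 17 and 14 in WT (2.92 and 1.16 CPM in the deeper WT libraries). WT replicate 2 lies above every KO library, and WT replicate 3 lies within their range. Gp1bb, encoding the beta chain, had 12, 36 and 11 counts in KO (0.542, 1.70 and 0.535 CPM) and 0, 10 and 0 in WT, with 1.72 CPM in WT replicate 2. Gp1bb overlaps the neighbouring gene Septin5 by 593 bases (RefSeq, GRCm38.p6), so its counts are uncertain. Septin5 had 1381, 2397 and 1524 counts in KO and 0, 193 and 6 in WT. Within KO both genes were highest in replicate 2, with Septin5 at 62.4, 113 and 74.1 CPM in replicates 1, 2 and 3. Of the 5 deeper libraries both were lowest in WT replicate 3, Gp1bb at 0 and Septin5 at 0.495 CPM. In WT replicate 2 they differed: Gp1bb was at about its level in KO replicate 2, while Septin5, at 33.2 CPM, was below every KO library. The part of Septin5 in the Gp1bb counts was not tested.

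Gp6, the collagen receptor gene, had 2 counts in KO replicate 3 and 0 in each of the other 5 libraries. Both groups are at or under 3 counts, and no fold is given.

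Vwf, the ligand of the receptor complex, had 40, 27 and 49 counts in KO (1.81, 1.28 and 2.38 CPM, mean 1.82 ± 0.554 SD, n = 3). It had 39 and 47 counts in WT replicates 2 and 3 (6.71 and 3.88 CPM) and 0 in WT replicate 1. Both deeper WT libraries lie above all 3 KO libraries in CPM, which held for 1 of the 6 members with enough counts to be tested on these 5 libraries and for 7.54% of all 16190 such genes. Groups apart in either direction made up 42.6% of all. With haemoglobin genes left out of the total WT replicate 3 was at 6.46 CPM.

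The groups were compared with edgeR's quasi-likelihood test across all genes that had enough counts, and genes with a Benjamini-Hochberg adjusted p under 0.05 passed. With 6 libraries, 5 of the 8 genes could be tested (Pf4, Gp1ba, Gp5, Gp9 and Vwf) and 0 passed. Of all 14756 genes tested 0% passed. At an unadjusted p under 0.05 there were 2200 genes, none of them a member, and limma-voom called 0 genes and DESeq2 813, again with no member. The log2 fold changes of KO over WT were -1.96 (SE 0.88) for Vwf, -1.36 (SE 0.66) for Gp5, -0.62 (SE 0.69) for Gp9, -0.14 (SE 0.51) for Gp1ba and -0.031 (SE 0.59) for Pf4. The smallest adjusted p was that of Vwf (edgeR, Benjamini-Hochberg adjusted p = 0.341).

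Without WT replicate 1, 6 of the 8 genes could be tested, Gp1bb being added, and Vwf passed. In log2 terms Vwf fell by 2.16 in KO (SE 0.40, edgeR, Benjamini-Hochberg adjusted p = 0.033). That is 1 of 6 tested members, while 15.5% of all 16190 tested genes passed, 7.44% as higher and 8.09% as lower in KO. Gp5 had a log2 fold change of -1.43 (SE 0.39) and did not pass with edgeR (Benjamini-Hochberg adjusted p = 0.0604), but did with DESeq2 (adjusted p = 0.021), which called 18.2% of all genes lower. Gp9 had -0.68 (SE 0.52), Pf4 -0.046 (SE 0.51), Gp1ba 0.043 (SE 0.34) and Gp1bb 0.31 (SE 1.32), and none of these passed (edgeR, Benjamini-Hochberg adjusted p = 0.361, 0.954, 0.936 and 0.879). These standard errors leave room for changes of either direction.

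**Figure D2:**
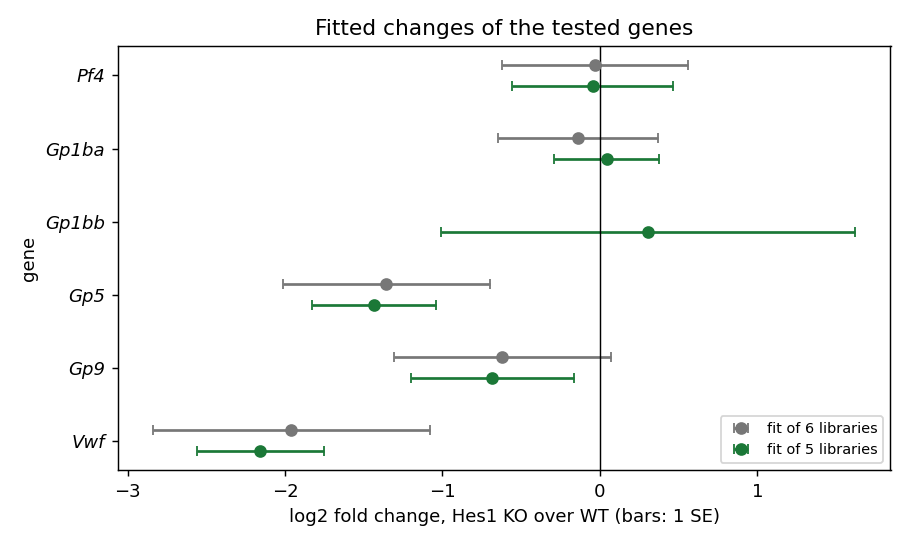
Log2 fold changes of KO over WT (x axis) of the tested genes (y axis) in the fit of all 6 libraries (grey) and in that of 5 libraries without WT replicate 1 (green), with bars of 1 standard error. Vwf lies at -1.96 and -2.16 and Gp5 at -1.36 and -1.43, while Pf4 and Gp1ba lie within 0.14 of 0. Gp1bb was tested in the fit of 5 libraries only.

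These fold changes use the trimmed mean of M-values (TMM), whose factors were 0.445 for WT replicate 3, 1.37 for WT replicate 2 and 1.05 to 1.26 for KO. On that scale Gp5 was at 2.14 and 2.60 CPM in the deeper WT libraries and at 0.672 to 1.00 in KO, Gp9 was at 1.89 and 2.04 against 0.608 to 1.61, and Vwf was at 4.92 and 8.73 against 1.21 to 1.92. All 3 genes were then lower in each KO library than in both WT libraries, as were 24.5% of all tested genes. With library totals alone the median of all genes moved from 0.02 to 0.44 and the log2 fold change of Vwf was -1.53, or -1.97 relative to that median, and it did not pass (edgeR, Benjamini-Hochberg adjusted p = 0.195). No gene of the table passed with that scaling.

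The Vwf call depended on the libraries. It was made with WT replicate 3 left out as well (-1.66, SE 0.41, edgeR, Benjamini-Hochberg adjusted p = 0.0254) and with WT replicate 2 left out (-2.51, SE 0.37, adjusted p = 0.0079), where the lone WT library is assumed to vary like the KO group. In these fits 18.4% and 14.3% of all tested genes were called lower. It was lost when KO replicate 1, 2 or 3 was left out, where 0 genes passed at all, although the log2 fold change stayed at -2.15, -2.14 and -2.40 (edgeR, Benjamini-Hochberg adjusted p = 0.135, 0.116 and 0.111). Ppbp had too few counts to be tested in the fit of 6 libraries or in that of 5. With WT replicate 3 left out as well it entered the fit, with a log2 fold change of -3.99 (SE 1.11). That value rests on the 20 counts of WT replicate 2, the lone WT library there. Vwf spans over 100 kb, and genes of that length took 17.1% of protein-coding counts in WT replicate 2 and 6.46% in WT replicate 3, against 7.86% to 9.87% in KO. The part of gene length in the Vwf result was not tested.

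As Vwf is also an endothelial gene, 19 endothelial markers were set beside it. Of these 18 are in the table, and they summed to 192 to 245 CPM in KO and to 336 and 200 CPM in the deeper WT libraries. Most of that sum came from Pecam1, an adhesion molecule gene, and Erg, both also expressed by blood cells. Pecam1 was at 111, 81.5 and 116 CPM in KO and at 132 and 70.9 CPM in the deeper WT libraries. Cldn5, a tight junction gene of endothelium, had 0 counts in each KO library and 4 and 0 in WT replicates 2 and 3. Of the 18 markers 1, 3 and 2 were at 0 in KO and 3 and 2 were in the deeper WT libraries. Of the 13 endothelial markers tested without WT replicate 1, 2 fell and 0 rose in KO, where 8.09% of all tested genes fell and 7.44% rose. The 13 are too few to set against these shares. The median log2 fold change of the 13 was -0.52, against 0.02 for all genes. Robo4, a guidance receptor of endothelium, fell by 2.28 (SE 0.40), and the transcription factor gene Erg fell by 1.58 (SE 0.31, edgeR, Benjamini-Hochberg adjusted p = 0.0312 and 0.0354). Robo4 was at 1.54, 1.32 and 1.31 CPM in KO and at 5.33 and 3.39 CPM in the deeper WT libraries. Other endothelial markers did not pass: Cdh5, the cadherin gene of endothelium, had a log2 fold change of -0.0031 (SE 0.70) and Tie1, a receptor kinase gene, 0.71 (SE 0.93). Cdh5 was at 13.2, 6.33 and 9.39 CPM in KO and at 3.27 and 6.11 CPM in the deeper WT libraries. Robo4, Cldn5, Cdh5 and Tie1 were named after their values were seen. The part of endothelial transcripts in the Vwf result was not tested.

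**Figure D3:**
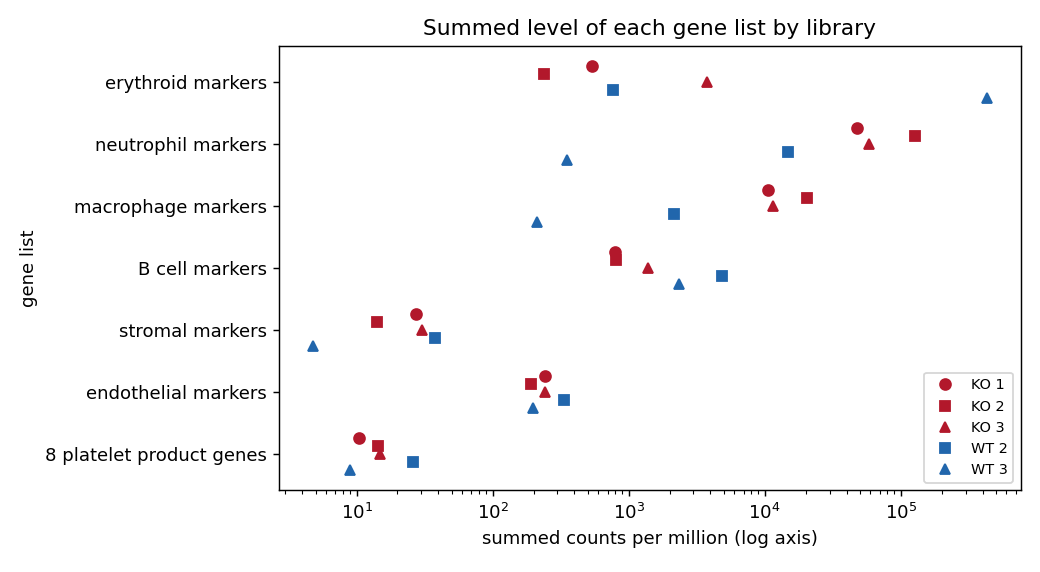
Summed CPM (x axis, logarithmic) of the 8 genes and of marker lists (y axis) in the 5 deeper libraries, red for KO and blue for WT. The 8 genes lie between 9.0 and 25.8 CPM in all 5 libraries, while the erythroid sum runs from 239 CPM in KO replicate 2 to 430111 CPM in WT replicate 3.

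Other platelet genes were taken as 5 lists by role, 43 genes in all, and each is in the table (Irag1 under its older symbol Mrvi1). Without WT replicate 1, 38 could be tested, of which 4 rose and 7 fell in KO, or 10.5% and 18.4%, where 7.44% and 8.09% of all tested genes did. The counts by role given next are too small to set against these shares. Their median log2 fold change was 0.48, against 0.02 for all genes. None of the 11 passed when a KO library was also left out or when library totals alone were used, since 0 genes of the table passed then. With 6 libraries 0 of 35 passed, and 20 of the 35 had positive log2 fold changes. The genes with the most counts in these lists are also made by leukocytes. F13a1, the factor XIII A chain of platelets and monocytes, was at 1755, 1166 and 1424 CPM in KO and at 434 and 25.1 CPM in the deeper WT libraries, and it did not pass. WT replicate 1 had 263 counts of F13a1, or 3975 CPM, above every KO library. Thbs1, thrombospondin 1, was at 170 to 404 CPM in KO and at 146 and 2.06 CPM in the deeper WT libraries, and did not pass. Neutrophil markers, led by S100a9 and S100a8, summed to 48055, 127821 and 58307 CPM in KO and to 14783 and 351 CPM in the deeper WT libraries, and macrophage markers, led by Lyz2 and Mpeg1, to 10586, 20543 and 11589 CPM and to 2162 and 213 CPM. B cell markers, led by Ebf1 and Pax5, summed to 798, 811 and 1393 CPM in KO and to 4826 and 2346 CPM in the deeper WT libraries. Their part in these lists was not tested.

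The lists ranged widely in their counts, and some genes known from megakaryocytes had few. Tubb1, the platelet beta-tubulin, had 2, 5 and 9 counts in KO and 0, 6 and 6 in WT replicates 1, 2 and 3. In CPM Tubb1 was at 0.0904, 0.236 and 0.438 in KO and at 1.03 and 0.495 in the deeper WT libraries. Its log2 fold change without WT replicate 1 was -2.07 (SE 0.72), and it did not pass (edgeR, Benjamini-Hochberg adjusted p = 0.0895). Treml1 and Mpig6b had too few counts to be tested. Treml1, a receptor of the alpha granule membrane, had 4, 4 and 8 counts in KO and 0, 1 and 4 in WT. Mpig6b, an inhibitory platelet receptor, had 6, 6 and 8 counts in KO and 0, 1 and 4 in WT. These 3 genes were singled out for low values, after their values were seen, and other platelet genes such as Itga2b and Mmrn1, described next, had 97 or more counts in each of the 5 deeper libraries.

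Among the adhesion receptors, 1 of 7 tested fell and 0 rose. Itga2b and Itgb3, which encode the chains of the fibrinogen receptor, had the most counts. Itga2b was at 45.7, 58.6 and 46.1 CPM in KO and at 16.7 and 23.5 CPM in the deeper WT libraries. On the TMM scale Itga2b overlapped between groups, at 36.2 to 55.6 CPM in KO and at 12.2 and 52.8 CPM in the deeper WT libraries. Itga2b and Itgb3 did not pass, with log2 fold changes of 0.40 (SE 0.59) and 0.80 (SE 0.29) without WT replicate 1 (edgeR, Benjamini-Hochberg adjusted p = 0.635 and 0.104). Pear1, a contact receptor that endothelium also expresses, fell by 1.92 (SE 0.40), from 29.9 and 23.8 CPM in the deeper WT libraries to 10.1, 11.6 and 13.4 CPM in KO. Among 8 tested receptors for soluble agonists and growth factors, 2 rose and 2 fell. The ADP receptor P2ry1 rose by 1.31 (SE 0.29) and the ATP-gated channel P2rx1 by 1.69 (SE 0.34). The thrombin receptor F2r fell by 1.39 (SE 0.24) and the thromboxane receptor Tbxa2r by 1.59 (SE 0.35). F2r overlapped between groups in unscaled CPM, at 7.10 to 8.22 in KO and at 24.6 and 7.27 in WT replicates 2 and 3. The adjusted p of these 5 genes lay between 0.0311 for F2r and 0.0418 for Tbxa2r (edgeR, Benjamini-Hochberg adjustment). F2rl2 and F2rl3, listed with F2r, did not pass, with log2 fold changes of -1.80 (SE 0.58) and 1.20 (SE 0.61). Which cells the F2r transcripts came from was not tested.

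Among 9 tested genes of granule cargo and granule formation, 1 fell. Mmrn1, encoding multimerin 1, a large protein that platelets and endothelium store, had 228, 175 and 246 counts in KO and 0, 242 and 310 in WT replicates 1, 2 and 3. It fell by 2.36 (log2, SE 0.31, edgeR, Benjamini-Hochberg adjusted p = 0.0294), with 10.3, 8.27 and 12 CPM in KO and 41.6 and 25.6 CPM in the deeper WT libraries. Of the 5 tested cytoskeletal genes 1 rose and 3 fell. The alpha-tubulin Tuba8 rose by 2.17 (SE 0.41), while the myosin kinase Mylk fell by 1.53 (SE 0.37), the caveolar gene Cavin2 by 2.50 (SE 0.62) and Irag1, a target of cGMP kinase, by 2.24 (SE 0.41). Mylk and Cavin2 overlapped between groups in unscaled CPM through WT replicate 3, at 4.71 and 0.495 CPM. Among 9 tested signalling genes, Rgs18, a regulator of G protein signalling in platelets and myeloid cells, rose by 1.93 (SE 0.35), and Rasgrp2, the most counted, did not pass with 0.23 (SE 0.31). The adjusted p of the 5 genes that passed lay between 0.0317 for Rgs18 and 0.0486 for Cavin2 (edgeR, Benjamini-Hochberg adjustment).

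**Figure D4:**
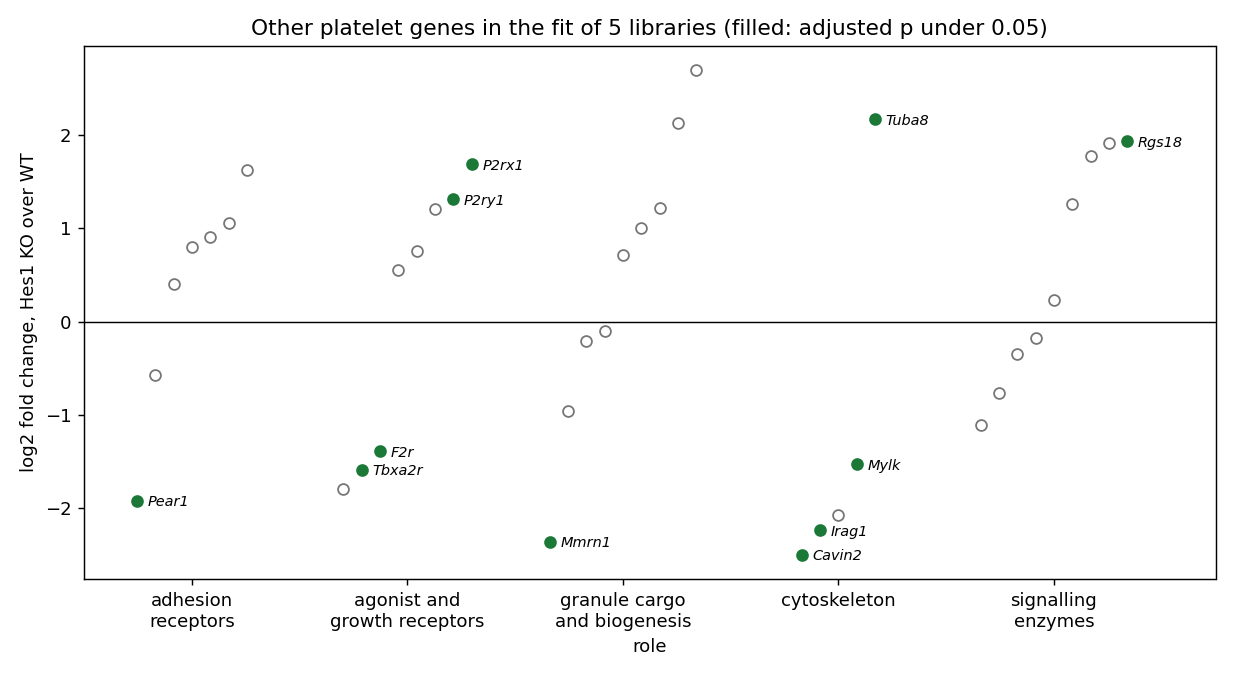
Log2 fold changes of KO over WT (y axis) of the 38 tested genes of the 5 other platelet lists, by role (x axis), in the fit without WT replicate 1. Filled and named points passed, 4 above 0 and 7 below, and open points did not.

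Of 7 megakaryocyte transcription factor genes 1 fell without WT replicate 1 and 0 rose. These are too few to set against the 8.09% and 7.44% of all tested genes. The median log2 fold change of the 7 was -0.33, against 0.02 for all genes. Zfpm1, the cofactor of GATA1, fell by 2.21 (SE 0.37, edgeR, Benjamini-Hochberg adjusted p = 0.0304), from 161 and 91.6 CPM in the deeper WT libraries to 32.5, 32.6 and 59.7 CPM in KO. The most counted, Nfe2 and Runx1, did not pass, with log2 fold changes of -0.13 (SE 0.76) and -0.31 (SE 0.21, edgeR, Benjamini-Hochberg adjusted p = 0.912 and 0.307).

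The genes with the most similar profile were sought for the 3 members with the most counts. Likeness was the root mean square difference of log2(CPM + 1) values after subtraction of each gene's mean, over the 5 deeper libraries and 12487 candidate genes. For Gp1ba these were Daam2 (0.0631), Acsbg3 (0.0700) and Lrsam1 (0.0856). For Vwf they were Pkd2l2 (0.0717), Dnajb6 (0.0806) and Myzap (0.0844), and for Gp9 they were Pde2a (0.0935), Ighv6-3 (0.108) and Lmbr1l (0.111). None of the 9 is among the other 7 members or the platelet lists. Genes under the mean of 1 CPM, such as Ppbp, Gp1bb, Gp6 and Tubb1, could not be picked. Pkd2l2 was at 2.17, 1.65 and 3.11 CPM in KO and at 7.05 and 4.54 CPM in the deeper WT libraries, close to the levels of Vwf.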

How the data were processed

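RNA of 6 samples was sequenced from libraries of a stranded kit that selects polyadenylated RNA, per the labels' protocols. The authors deposited whole-number read counts per gene symbol, made with featureCounts per the name of the table. The build GRCm39 and the tools edgeR and limma are named in the submitters' processing notes. The sources used here name no aligner, annotation or strand setting.

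The deposited counts went unchanged into edgeR 4.0.16 in R 4.3.3 (filterByExpr, TMM, quasi-likelihood test with the legacy option off), and p-values were adjusted over all genes tested. A standard error is the log2 fold change over the root of F. CPM are counts per 1000000 counts of the library. Wilson 95% intervals and the limit of 3 counts for a 0 cover counting error only. DESeq2 1.42.0, limma-voom (limma 3.58.1), other scalings and filters, a replicate block and leaving out each library served as alternatives. The scripts were tested on simulated data. The 8 genes and all lists were chosen with earlier results of these data known. Named by rule were the 8 genes, genes of the platelet and transcription factor lists that passed without WT replicate 1, and the 2 most counted genes of each list. The 3 genes most similar in profile to the 3 most counted members were added. Outside that rule, Robo4, Cldn5, Cdh5, Tie1, Tubb1, Treml1, Mpig6b, F2rl2 and F2rl3 were named after their values were seen. Septin5 and Slc25a11 were named as gene neighbours. Promoters and gene neighbours came from RefSeq on GRCm38.p6 and exon lengths from GENCODE vM21, matched by symbol.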

Additional observations from a re-analysis of the deposited data

How the results depend on the processing

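The genes called with 6 libraries were 813 with DESeq2 and 0 to 2513 when a library was left out. The genes called with 5 libraries were 0 with library totals alone, 4997 with DESeq2, 1440 with limma-voom, 0 with the replicate block and 0 to 6210 when a further library was left out. Vwf was not called in the fit of 5 libraries with the replicate block (log2 fold change -2.10, edgeR, Benjamini-Hochberg adjusted p = 0.273). Deviations of same-numbered libraries correlated at 0.173, -0.0264 and 0.269 for replicates 1, 2 and 3. For replicates 1 and 3 the same-numbered library was the best match, while that of WT replicate 2 was Hes1 KO replicate 3 (0.0222). The labels state no pairing, so the main fits used none, and these correlations do not settle whether the numbers pair the libraries. The directions of Pf4, Gp1ba and Gp1bb were not stable. With 6 libraries Pf4 was at 0.56 with library totals alone, 0.17 with no filter, 0.14 with the replicate block and -0.48 to 0.38 when a library was left out, and Gp1ba was at 0.11 with library totals alone, 0.094 with no filter and -0.38 to 0.051. With 5 libraries Pf4 was at 0.53 with library totals alone, 0.13 with no filter, 0.11 with the replicate block and -0.49 to 0.41, and Gp1ba was at -0.023 with RLE scaling, -0.037 with a minimum of 1 CPM in 2 libraries, -0.024 with DESeq2, -0.019 with limma-voom and -0.20 to 0.21. Gp1bb ran from -0.59 to 7.05 there, the latter against WT replicate 3, which has 0 counts of it. Vwf, Gp5 and Gp9 stayed negative under every alternative run in both fits. The cause of these changes was not tested. The depth of WT replicate 1 shows no level below 45.3 CPM, and Ppbp and Gp6 had too few counts for either fit.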
